A study of Mus musculus with 26 samples.

Results

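The 9 interferon-stimulated genes Isg15, Usp18, Ifit1, Ifit3, Oasl2, Rsad2, Bst2, Irf7 and Ifi27l2a were followed in every library of a study of mutant pannexin 1 channels in mouse arteries. They were taken by symbol and were 9 of the 21031 genes in the normalised table, which came from 57010 identifiers in the counts table. Bulk poly(A) RNA sequencing covered 26 libraries of mesenteric arteries from male mice aged 8 weeks. Panx1 encodes a membrane channel that releases ATP, and the series asks how sites at which the channel is phosphorylated bear on its activity.

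The 8 groups were WT with 3 libraries, Panx1 KO (a global knockout) with 3, Y198F controls (genotype Y198F-/-) with 3 and Y198F mutants (Y198F+/+) with 3. The S205A controls (S205A-/-) and the S205A mutants (S205A+/+) had 4 libraries each, and the Y308F controls (Y308F-/-) and Y308F mutants (Y308F+/+) had 3 each. Each mutant carries a substitution at 1 residue of the channel, and controls are described as littermate or WT animals without saying which applies to which line. No other allele or agent is given in the labels. The labels do not say whether a library came from 1 animal or from several, so p-values measure the spread between these libraries. The design text gives 3 vascular trees for each genotype, while the S205A groups hold 4 libraries each, and all 4 were used as replicates.

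Total counts ran from 14.9 to 23.6 M per library. Panx1 read 10.9 to 25.4 normalised counts in the knockout libraries and 15.4 to 98.4 in the other 23, and the library labelled S205A control 1 (15.4) lay inside the knockout range. That library also had the lowest summed level of 7 endothelial markers (21546 against a median of 87372 normalised counts over the 26 libraries) and the highest of 7 smooth muscle markers (795678). Smooth muscle and endothelial markers were high in every library, as the labelled tissue would have them, while the 5 markers of plasmacytoid dendritic cells in the normalised table (of 7 listed), specialised interferon producers, summed to 6.10 to 100.5. In 9 libraries, namely all 3 of the Y198F mutant group, numbers 1 to 3 of the S205A control group and numbers 2 to 4 of the S205A mutant group, the label's library name carries a number beginning with 22. What it stands for is not stated, and these 9 libraries are called the 22 series below. All 3 Y198F mutants but none of the Y198F controls belong to it, so series and genotype cannot be told apart between those groups.

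Interferon-stimulated genes are the effector genes of the antiviral interferon response. Type I interferons bind a receptor of Ifnar1 and Ifnar2, the kinases Jak1 and Tyk2 relay the signal, and a complex that holds Stat2 and Irf9 binds a short promoter element, the interferon-stimulated response element (ISRE). Many of the genes are also transcribed at a low level without infection, and in vessels both endothelial and smooth muscle cells can carry the response. In bulk tissue, fewer cells of a type and less RNA per cell cannot be told apart.

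Among the 9 genes, Isg15 encodes a ubiquitin-like protein that is coupled to other proteins, and Usp18 the protease that removes it and that also restrains the type I receptor. Ifit1 binds foreign RNA, Ifit3 belongs to the same family, and Oasl2 is a relative of the oligoadenylate synthetases. Rsad2 (viperin) is a radical enzyme that makes a chain-ending nucleotide, and Bst2 (tetherin) holds budding virus at the cell surface. Irf7 is the transcription factor that amplifies interferon production, and Ifi27l2a belongs to the small Ifi27 family of membrane proteins. In GENCODE vM39 on GRCm39 they lie on 7 chromosomes. Isg15 spans chr4:156283883-156285303 (minus strand), Usp18 chr6:121222848-121247877 (plus), Ifit1 chr19:34618271-34632174 (plus) and Ifit3 chr19:34560899-34566443 (plus). Oasl2 spans chr5:115034997-115050295 (plus), Rsad2 chr12:26492745-26506451 (minus) and Bst2 chr8:71986895-71990114 (minus). Irf7 spans chr7:140842619-140846398 (minus) and Ifi27l2a chr12:103399975-103409950 (minus). Exons of Isg15, Irf7, Usp18 and Ifi27l2a overlap exons of a gene on the other strand (Gm46878, Phrf1, Gm44148 and Ifi27). Whether counting used the strand is not stated, so reads of these pairs could not be separated, and Ifit3 has a near copy in Ifit3b.

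The promoters are shown because the ISRE is the element through which type I interferon acts on many such genes. The ISRE-type letters, GAAA then 2 bases of any kind then GAAA, searched on both strands from 250 bases before to 50 after the annotated start, were found in 6 of the 9 genes (Isg15, Usp18, Ifit1, Ifit3, Rsad2 and Bst2). Of 14868 protein-coding promoters of the same length, 3.67% held them. Neither Irf7 nor Oasl2 nor Ifi27l2a held the letters in this window, which says nothing of elements elsewhere, and the first 2 of these 3 genes varied together with the 6. The 150 bases before the start are printed 5′ to 3′ on the gene's strand for the 6 genes with a match and for Ifi27l2a, with the ISRE-type letters in capitals. The windows are chr4:156285304-156285453 for Isg15, chr6:121222707-121222856 for Usp18, chr19:34618121-34618270 for Ifit1, chr19:34560749-34560898 for Ifit3, chr12:26506452-26506601 for Rsad2, chr8:71990115-71990264 for Bst2 and chr12:103409951-103410100 for Ifi27l2a (GRCm39, each on the strand of its gene). The start is that of the canonical transcript, which for Usp18 lies inside the gene's span, after the first base of the gene, and for the other genes shown at its edge.
Isg15: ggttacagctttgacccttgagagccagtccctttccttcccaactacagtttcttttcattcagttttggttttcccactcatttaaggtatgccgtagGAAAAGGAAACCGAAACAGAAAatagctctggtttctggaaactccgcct
Usp18: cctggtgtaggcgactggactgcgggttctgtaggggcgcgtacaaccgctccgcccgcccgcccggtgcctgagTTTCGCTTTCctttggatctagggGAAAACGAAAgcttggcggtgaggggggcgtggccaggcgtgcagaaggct
Ifit1: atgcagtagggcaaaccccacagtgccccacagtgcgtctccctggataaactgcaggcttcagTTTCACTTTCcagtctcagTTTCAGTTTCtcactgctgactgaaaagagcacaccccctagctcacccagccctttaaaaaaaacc
Ifit3: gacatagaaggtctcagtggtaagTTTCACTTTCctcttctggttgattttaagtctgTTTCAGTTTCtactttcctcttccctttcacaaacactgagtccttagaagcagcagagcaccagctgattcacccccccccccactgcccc
Rsad2: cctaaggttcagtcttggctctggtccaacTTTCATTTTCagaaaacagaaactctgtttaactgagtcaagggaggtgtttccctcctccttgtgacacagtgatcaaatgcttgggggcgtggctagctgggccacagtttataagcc
Bst2: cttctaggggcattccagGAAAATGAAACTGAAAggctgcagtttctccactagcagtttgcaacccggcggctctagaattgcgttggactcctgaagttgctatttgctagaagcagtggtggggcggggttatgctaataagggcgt
Ifi27l2a: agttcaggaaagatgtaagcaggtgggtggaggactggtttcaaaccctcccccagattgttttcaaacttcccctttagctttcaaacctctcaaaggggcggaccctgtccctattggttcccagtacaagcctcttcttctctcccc
Counted from the start, Isg15 held 3 overlapping matches that begin at -50, -44 and -38. Those of Ifit1 began at -86 and -67 and those of Ifit3 at -126 and -92.

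All 9 genes were detected in each library, with 14 (Rsad2 in S205A control 1) to 3260 raw counts (Ifi27l2a in WT 3). Levels below are normalised counts, the counts divided by a factor for each library, and levels of different genes are compared per kilobase of exon. Per kilobase, Ifi27l2a (mean 810.1 ± 636, SD, n = 26 libraries) and Bst2 (801 ± 261) stood highest. Isg15 (251 ± 145) and Ifit3 (237 ± 147) followed, then Oasl2 (102 ± 41.4) and Irf7 (89.0 ± 53.8). Ifit1 (36.2 ± 23.4), Usp18 (28.3 ± 15.7) and Rsad2 (23.4 ± 13.8) were lowest, and within each of these sets the means differed by less than the SD over libraries.

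The data showed 2 things about these genes. Across libraries, with group means removed, 8 of the 9 genes moved together, and the exception, Ifi27l2a, moved with genes of fat cells. The average of the 8 differed by up to 5.50-fold between libraries of a group. That value came from the S205A controls, with S205A control 1 as the lowest library, and the next was 5.27-fold in the S205A mutants. With its filter on low counts and all libraries, edgeR placed none of the 9 past the threshold between a mutant and its controls. Under other settings up to 3 genes passed in the Y198F line and 1, Ifi27l2a, in Panx1 KO, given with those comparisons.

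Isg15, the ubiquitin-like modifier, read 140.0, 177 and 172 normalised counts in the WT libraries and 139, 212 and 211 in the Panx1 KO libraries. It read 130.2, 269 and 228 in the Y198F controls and 169, 109 and 89.2 in the Y198F mutants. The S205A controls read 96.2, 371, 158 and 267, and the S205A mutants 77.1, 126, 147 and 577. In both S205A groups single libraries thus lay several times above the lowest of their own group. The Y308F controls read 231, 191 and 98.7 and the Y308F mutants 428, 158 and 130. Every mutant group overlapped its controls.

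Rsad2, the radical enzyme, read 48.9, 85.7 and 100.03 in WT and 91.1, 109 and 169.9 in Panx1 KO. In the Y198F line it read 68.3, 202 and 121 in the controls and 33.6, 63.8 and 62.7 in the mutants, so that every mutant lay below every control. The S205A controls spanned 13.5, 167, 69.2 and 212 and the mutants 41.8, 66.1, 90.7 and 256. The spread of the controls, 15.8-fold, was the widest of the 8 genes in that group, while in the mutants Ifit1 spread more (8.17-fold against 6.11-fold). The Y308F controls read 84.1, 108 and 94.6, closely together, and the mutants 159.7, 79.7 and 37.9.

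Irf7, the amplifying transcription factor, read 294, 235 and 281 in WT and 181, 266 and 431 in Panx1 KO. It read 189, 406 and 337 in the Y198F controls and 302, 173 and 293 in the mutants. The S205A controls read 118, 905, 283 and 365 and the mutants 152, 368, 409 and 701. S205A control 1 and S205A mutant 1 were again the lowest of their groups, while S205A control 2 lay above S205A mutant 4 and S205A control 4, the highest control for Rsad2, lay well below control 2. The Y308F controls read 282, 340 and 218 and the mutants 884, 204 and 127.

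The other 5 of the 8 genes are given by their ranges. Ifit1 ran from 92.3 to 888 with a median of 209.5, Ifit3 from 234 to 2021 with a median of 566, and Usp18 from 27.9 to 278 with a median of 80.5. Each was lowest in S205A control 1 and highest in S205A mutant 4. Oasl2 (197 to 1326, median 615) had the same lowest and highest libraries, and Bst2 (552 to 2020, median 904) was lowest in Y308F mutant 3 and highest in Y308F mutant 1. Bst2 had the smallest range over the libraries, 3.66-fold, and Rsad2 the largest of the 8, 19.0-fold.

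**Figure D1:**
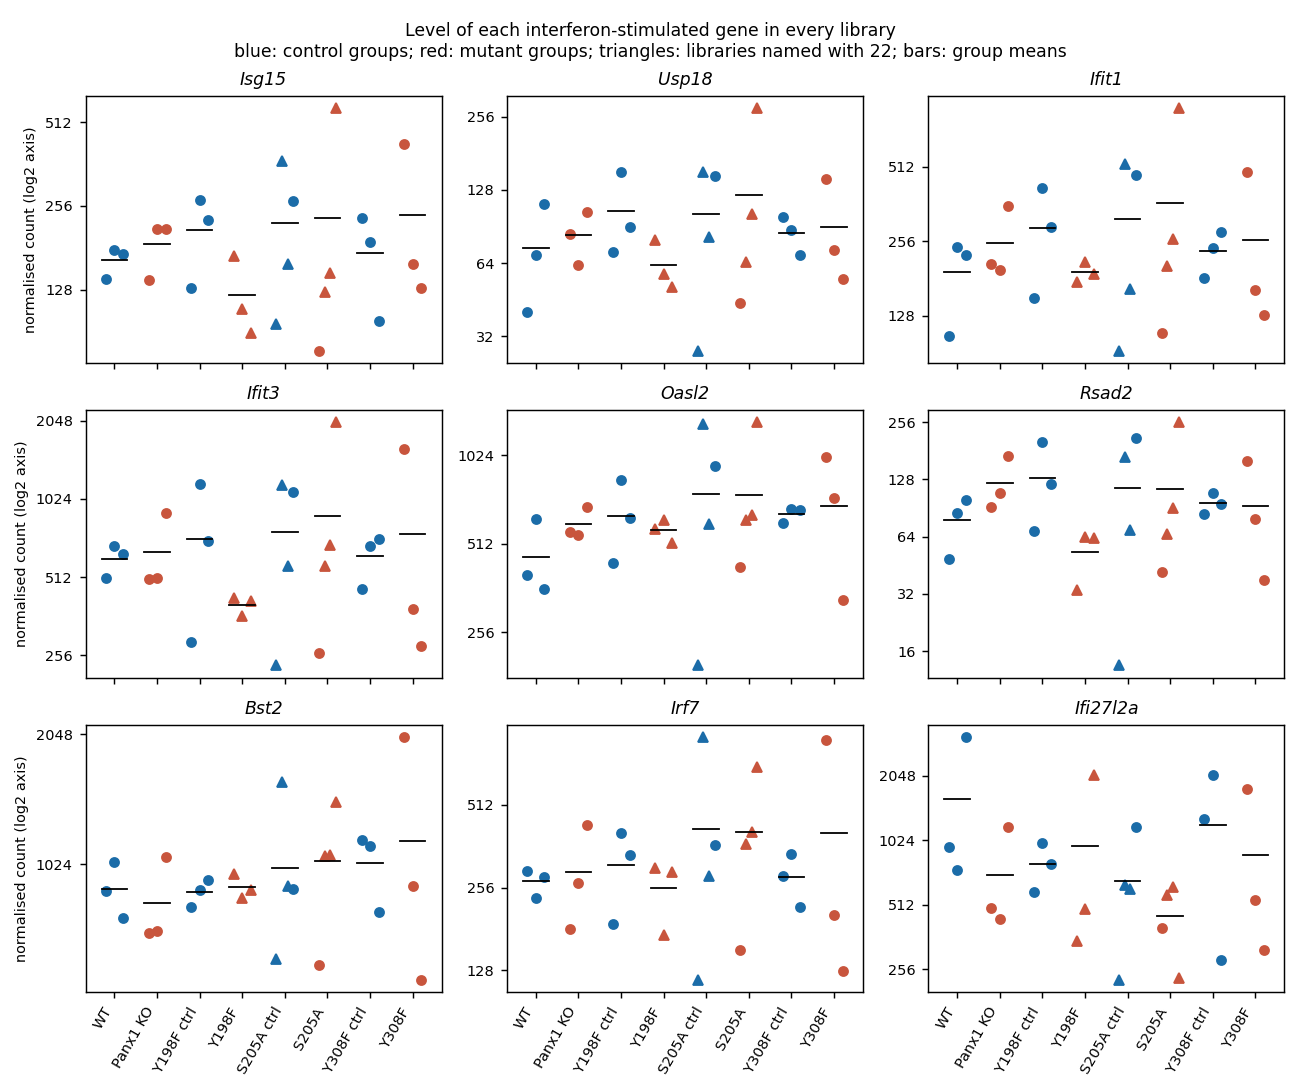
Normalised count (log2 axis) of each of the 9 genes in the 26 libraries by group, with blue points for control groups, red for mutant groups, triangles for the 22 series and bars for group means. In Isg15, Usp18, Ifit1, Ifit3 and Rsad2 the highest point is S205A mutant 4, while Ifi27l2a is highest in WT 3 (3106).

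Ranked over the 26 libraries, S205A mutant 4 was among the 4 highest for 8 of the 8 genes, S205A control 2 for 7 and Y308F mutant 1 for 6. S205A control 1 was among the 4 lowest for 8 of the 8 genes, S205A mutant 1 for 7 and Y308F mutant 3 for 6. High and low libraries thus occurred under the same genotype. Within a group, the average of the 8 genes on the log2 scale differed between the highest and the lowest library by 5.50-fold in the S205A controls, 5.27-fold in the S205A mutants and 3.94-fold in the Y308F mutants. It differed by 2.24-fold in the Y198F controls, 1.61-fold in Panx1 KO, 1.42-fold in WT, 1.22-fold in the Y308F controls and 1.09-fold in the Y198F mutants. In the last 2 of these groups the 8 genes had no common order: Isg15 and Usp18 were highest in Y308F control 1 where Ifit1 and Ifit3 were lowest, and Isg15 was highest in Y198F mutant 1 where Rsad2 and Ifit1 were lowest. Across all libraries the average spanned 7.25-fold, and the 8 group means only 1.43-fold. In the S205A controls the average of the log2 levels was 6.69 in control 1, whose Panx1 level lay in the knockout range, and 7.94 to 9.15 in the others.

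The group explained little of the spread. Of the variance of each gene's log2 level, 4.84% (Irf7) to 21.8% (Ifi27l2a) lay between groups, with a median of 8.75% over the 9 genes and 37.1% over 14348 genes, where 28.0% would be reached from the number of groups alone. The SD within groups had a median of 0.86 log2 units over the 9 genes and 0.26 over all. edgeR's biological coefficient of variation ran from 0.314 (Bst2) to 0.663 (Ifi27l2a), against a median of 0.238 over 18715 genes.

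To ask whether the libraries' deviations were shared, group means were removed from the log2 levels and the genes were correlated in pairs over the 26 libraries, with permutations of libraries inside groups. The 28 pairs without Ifi27l2a had Pearson's r from 0.694 (Rsad2 with Bst2) to 0.957 (Ifit1 with Ifit3), with a median of 0.850. Spearman's rho ran from 0.557 to 0.939 with a median of 0.748. Each of the 28 passed in both measures after adjustment over all 36 pairs (permutation test, two-sided, raw p for r from 1e-05, the smallest these permutations can give, to 0.00636, and for rho up to 0.0145). The adjusted p ran from 6e-05 to 0.00818 for r and from 0.00012 to 0.0186 for rho. The median r over all pairs of 14348 genes was -0.0038. Setting Ifi27l2a apart was done after its values were seen.

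The relation did not rest on a few libraries or on 1 series. Without the 2 libraries farthest from the median of the gene on the x axis, the 28 values of r ran from 0.634 to 0.937. In the 9 libraries of the 22 series they ran from 0.785 to 0.978 (median 0.921), and in the other 17 from 0.625 to 0.955 (median 0.806). Without S205A control 1, whose Panx1 and endothelial levels stood apart, and S205A mutant 4 they ran from 0.612 to 0.925 (median 0.772). High values were also found between genes of different roles, for example Irf7 with Bst2 (r = 0.924) and Rsad2 with Oasl2 (r = 0.919).

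**Figure D2:**
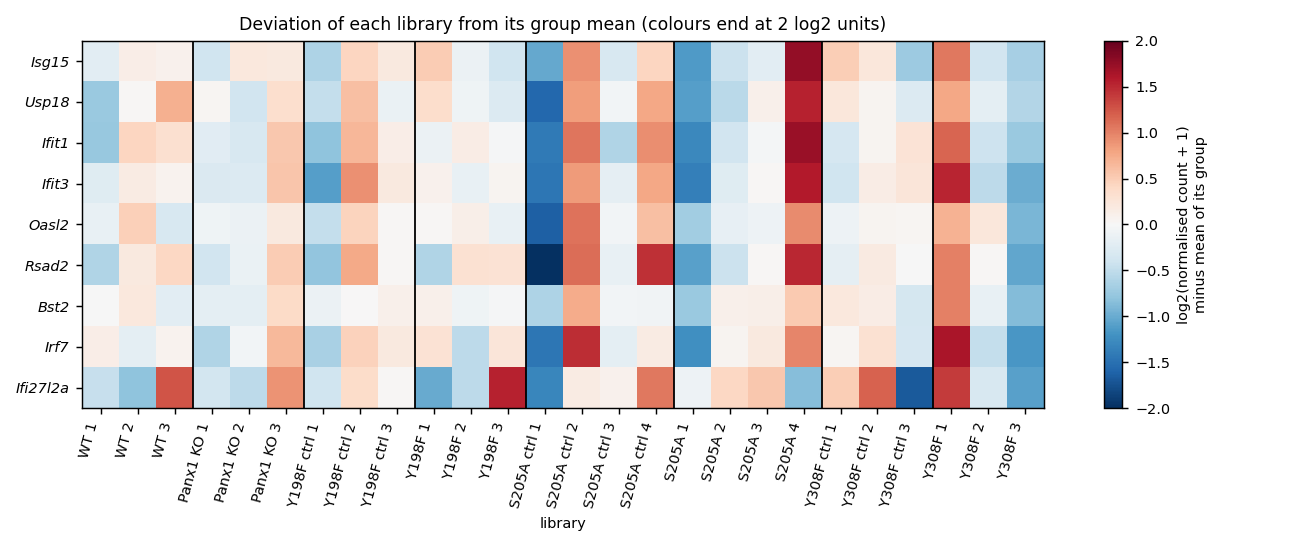
Difference of each library from its group mean in log2(normalised count + 1), with genes as rows, libraries as columns, black lines between groups and colours that end at 2 log2 units. The columns S205A control 2, S205A mutant 4 and Y308F mutant 1 are red and the columns S205A control 1, S205A mutant 1 and Y308F mutant 3 blue for the 8 upper genes. In the lowest row, Ifi27l2a, S205A mutant 4 is blue (-0.86), and S205A control 2 (0.16) and S205A mutant 1 (-0.097) are pale. The remaining named columns have the same colour there as for the 8 genes.

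Levels of cell type markers were set against these deviations. For the 8 genes together, Spearman's rho of their average with the summed markers was 0.021 for endothelium, -0.20 for smooth muscle, 0.084 for macrophages, 0.092 for lymphocytes, 0.082 for adipocytes and -0.14 for plasmacytoid dendritic cells (n = 26). With total counts it was -0.35. No relation of a single one of the 8 genes with a marker sum or with total counts passed after adjustment over 90 relations (permutation test, lowest adjusted p = 0.526). The pooled values cover unlike values in the 2 series, given here without a test. Endothelial markers had r from 0.494 (Isg15) to 0.846 (Oasl2) with the 8 genes in the 22 series and from -0.15 (Ifit3) to 0.199 (Oasl2) in the other libraries. Macrophage markers had r from -0.75 (Isg15) to -0.22 (Rsad2) in the 22 series and from 0.059 (Bst2) to 0.422 (Isg15) in the others. Adipocyte markers had r from -0.70 (Isg15) to -0.19 (Rsad2) in the 22 series and from 0.146 (Oasl2) to 0.512 (Usp18) in the others. Smooth muscle markers had r from -0.71 (Irf7) to -0.19 (Isg15) in the 22 series and from -0.35 (Usp18) to 0.133 (Oasl2) in the others. Total counts had r from -0.81 (Bst2) to -0.53 (Isg15) in the 22 series and from -0.54 (Ifit3) to -0.24 (Isg15) in the others. S205A control 1 and control 2 hold the lowest (21546) and the highest (182844) endothelial sum of all libraries, and without the 2 libraries farthest from the median of that sum r ran from -0.20 to 0.093. S205A mutant 4, the highest library for most of the 8 genes, had an endothelial sum of 80249, below the median, and the lowest adipocyte sum (1017). The part of cell makeup and depth in the shared deviations was not tested further.

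Ifi27l2a behaved differently from the other 8 genes. It read 948, 746 and 3106 in WT and 491, 437 and 1174 in Panx1 KO, 588, 997 and 788 in the Y198F controls and 348, 487 and 2053 in the Y198F mutants. In the S205A controls it read 228, 632, 602 and 1177 and in the mutants 397, 565, 618 and 234, and in the Y308F controls 1278, 2055 and 284 and the mutants 1768, 538 and 316. S205A mutant 4, first or close to first for the 8 other genes, ranked 25 of 26 for Ifi27l2a, and WT 3, which ranked from 6 to 24 for the other genes, ranked first. Its r with the other 8 genes ran from 0.272 (Isg15) to 0.507 (Irf7), and 2 of the 8 pairs passed after adjustment (Irf7 with an adjusted p of 0.0234 and Rsad2 with 0.0206, permutation test). In the 22 series these values of r ran from -0.22 to 0.335, and in the other libraries from 0.393 to 0.698.

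Ifi27l2a followed markers of fat cells instead. Its r with the sum of 7 adipocyte markers was 0.858 and its rho 0.877 over the 26 libraries with group means removed (permutation test, two-sided, raw p = 6e-05 and 7e-05, adjusted over 90 relations 0.0054 and 0.0063). The value of r was 0.785 in the 22 series, 0.915 in the other libraries and 0.836 without the 2 farthest libraries. The macrophage markers gave r = 0.679 and rho = 0.721 (adjusted p = 0.0266 and 0.0162, permutation test), and smooth muscle markers r = -0.62 (raw p = 0.0101, adjusted p = 0.302). WT 3, with the highest Ifi27l2a, had the highest adipocyte sum (55721) and a macrophage sum of 2797, and Y198F mutant 3, which read 2053 for Ifi27l2a, had the next (40111). S205A mutant 4, at 234, had the lowest (1017). Adipoq, the hormone of fat cells, and Plin1, which coats their lipid droplets, had rho = 0.877 and 0.863 with Ifi27l2a, and the gene ranked first among 14339 was Cebpa, a transcription factor of fat cell formation (rho = 0.917). These 3 were chosen after their values were seen. Whether Ifi27l2a was transcribed in fat cells attached to the arteries was not tested. Its exons overlap those of Ifi27, which had rho = 0.273 with it.

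**Figure D3:**
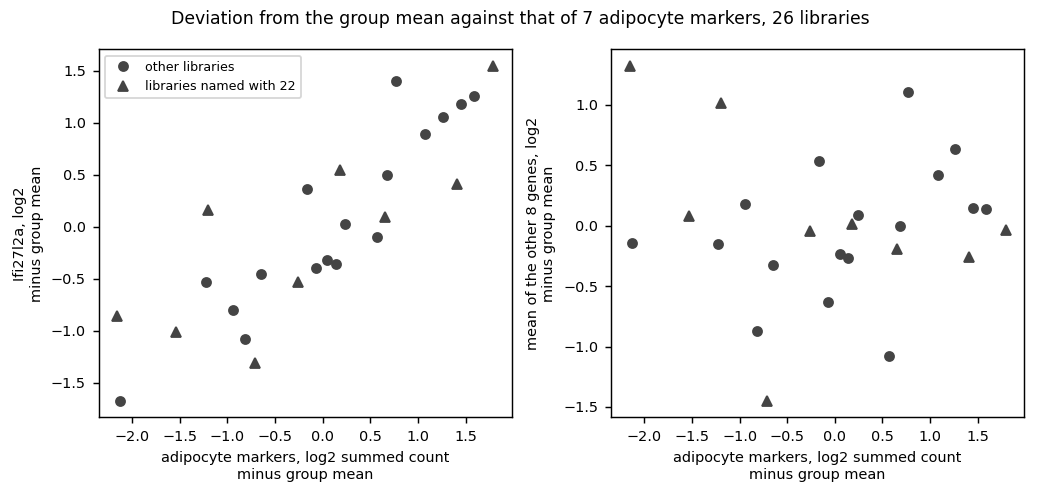
Deviation from the group mean of Ifi27l2a (left) and of the average of the other 8 genes (right) on the vertical axes, in log2 units, against that of the summed adipocyte markers, for 26 libraries with triangles for the 22 series. The left points rise together (r = 0.858), and the right points have rho = 0.082 over both series.

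The comparisons of each mutant with its controls used edgeR's quasi-likelihood test on the raw counts, with p-values adjusted over all genes by the Benjamini-Hochberg method and a threshold of 0.05. All 9 genes passed the filter on low counts in each comparison. With knockout of the whole channel none of them was past the threshold, and 0.0309% of 16193 tested genes were. Panx1 itself was not past it, with 81.8 ± 16.4 normalised counts in WT and 18.0 ± 7.23 in the knockout (SD, n = 3 each, log2 fold change -2.17, SE 0.39, edgeR adjusted p = 0.250), although its groups did not overlap. A count of 0 in this comparison therefore does not show that the 9 genes were unaffected. None of the 9 reached an unadjusted p under 0.05, against 11.2% of all genes, and DESeq2 called none of the 9 either (117 of 12949 genes passed). With replicate number as a block edgeR called 1, Ifi27l2a (log2 fold change -1.04, adjusted p = 0.0300), where 18 of 16193 genes passed. No gene had groups that did not overlap, against 17% of all genes. The log2 fold change, Panx1 KO over WT, ran from -1.18 (SE 0.77, Ifi27l2a) to 0.67 (SE 0.34, Rsad2). The median was 0.19 against 0.0052 over all genes, and 7 of the 9 genes lay above 0, as did 50.8% of all genes. Without Panx1 KO 3 the median was 0.00045, and 4 of the 9 genes changed sign when 1 library or another was left out. Rsad2 averaged 123 ± 41.4 in the knockout and 78.2 ± 26.4 in WT (SD, n = 3 each, edgeR adjusted p = 0.504), with overlapping groups. Panx1 KO 3, the highest of its group for 7 of the 8 genes, also had the highest sums of macrophage (2914), plasmacytoid dendritic cell (100.5) and Schwann and neuron markers (4902) of all libraries, and the lowest of smooth muscle markers (383827). Their part in the values of this comparison was not tested. The Ifi27l2a difference fell from -1.18 to -0.26 without WT 3, and all 7 adipocyte markers lay below 0 in this comparison, with a median log2 fold change of -1.55 and none past the threshold.

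In Y198F mutants against their controls, none of the 9 genes passed with edgeR, while 15% of 16050 genes did (9.55% higher and 5.48% lower). These 2411 genes became 908 without Y198F control 3 and 1546 without Y198F control 1. When the Y198F mutants were set against the 3 S205A controls of the 22 series, 0 of 15879 genes passed with edgeR. All Y198F mutants and none of their controls belong to the 22 series, so series and genotype cannot be told apart here. The log2 fold changes ran from -1.28 (Rsad2) to 0.30 (Ifi27l2a) with a median of -0.58 against -0.0028 over all genes. Of the 9, 7 lay below 0, where 49.7% of all genes lay above 0. Median log2 fold changes of markers were -0.60 for macrophages (0 of 10 above 0), -0.99 for fibroblasts (1 of 7) and 1.23 for adipocytes (7 of 7), with none past the threshold. Their part in the values of the 9 genes was not tested. Unadjusted p under 0.05 was reached by 2 genes, Rsad2 (0.00953) and Isg15 (0.0297), where 29.1% of all genes reached it. Rsad2 had 131 ± 67.5 normalised counts in the controls and 53.4 ± 17.2 in the mutants (SD, n = 3 each), which is -1.28 ± 0.41 (SE) in log2 fold change with an edgeR adjusted p of 0.0579. It was the only member whose groups did not overlap, a pattern shown by 30.6% of all genes in this comparison. DESeq2 placed Rsad2 past the threshold (log2 fold change -1.29, adjusted p = 0.0205), where 2668 of 18711 genes passed. Without a filter on low counts edgeR did so too (adjusted p = 0.00102) and also called Isg15 (0.0117) and Ifit1 (0.0256), where 3158 of 28760 genes passed. With replicate number as a block Rsad2 passed (edgeR adjusted p = 0.0357), where 1760 of 16050 genes did. Over all alternatives the adjusted p of Rsad2 ran up to 1 when the 22 series was a term. Isg15 (-0.77, SE 0.31), Usp18 (-0.73, SE 0.34), Ifit3 (-0.84, SE 0.53) and Ifit1 (-0.58, SE 0.32) had edgeR adjusted p from 0.123 to 0.385. Without Y198F control 2, the highest control, the log2 fold changes of these 4 genes lay between -0.55 and -0.21 and that of Rsad2 at -0.82, and the median of the 9 genes was -0.21 (-0.89 without Y198F control 1). Without Y198F control 1, the lowest control, Rsad2, Ifit1 and Ifit3 passed (edgeR adjusted p = 0.0272, 0.0284 and 0.00702). The Ifi27l2a value turned from 0.30 to -0.91 without Y198F mutant 3 (edgeR adjusted p = 0.0399), the library with the high adipocyte sum. In that fit 2093 of 16612 genes passed.

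In the S205A line, where both genotypes had libraries of both series, none of the 9 genes passed with edgeR or DESeq2 (0% of 15709 genes passed with edgeR). None reached an unadjusted p under 0.05, against 2.87% of all genes. The log2 fold changes ran from -0.53 (Ifi27l2a, SE 0.46) to 0.27 (Usp18, SE 0.65), with a median of 0.056 against -0.013 over all genes. The SE of the 9 genes ran from 0.32 to 0.78, and none had groups that did not overlap, against 1.74% of all genes. The median ran from -0.52 (without S205A mutant 4) to 0.41 (without S205A control 2) when 1 library was left out, and 8 of the 9 genes changed sign in 1 such run or another. It was -0.20 without S205A control 1 and -0.84 without both S205A control 1 and mutant 4. In the 22 series alone it was 0.45, again with none of the 9 past the threshold.

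Y308F mutants against their controls gave the same count of 0 of 9 with edgeR and DESeq2 (0% of 16037 genes with edgeR). None of the 9 reached an unadjusted p under 0.05, against 4.4% of all genes, and none had groups that did not overlap, against 10.4%. The log2 fold changes ran from -0.47 (Ifi27l2a, SE 0.97) to 0.53 (Irf7, SE 0.75) with a median of 0.15 against -0.025 over all genes. Without Y308F mutant 1, the highest library of its group for 8 genes, the median was -0.68, and each of the 9 genes changed sign when 1 library or another was left out.

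**Figure D4:**
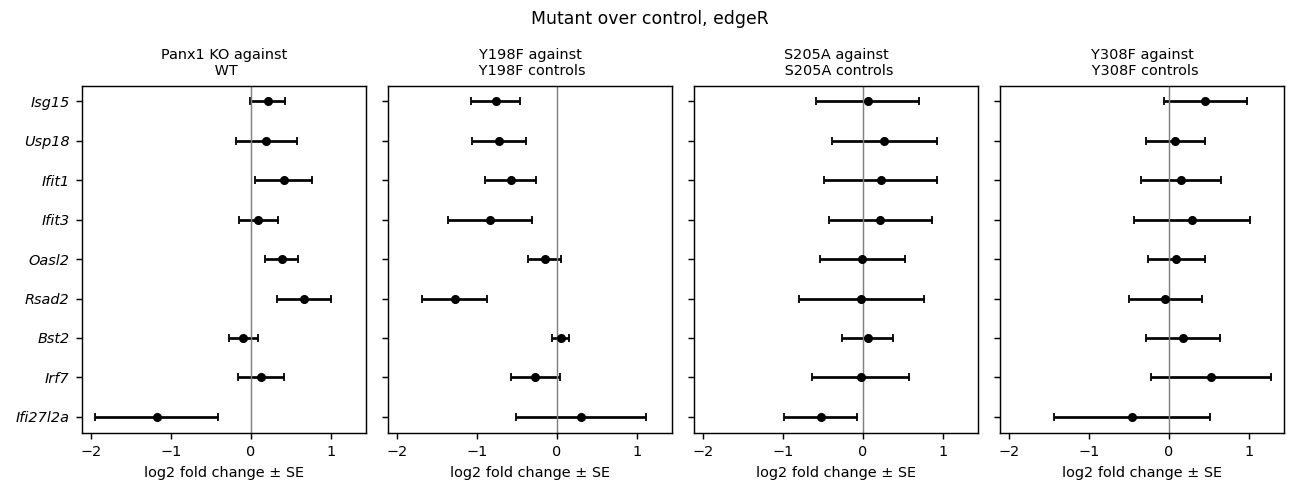
Log2 fold change of each of the 9 genes, mutant over control, with its standard error as bars, in the 4 comparisons fitted with edgeR. The values of Rsad2 lie at 0.67 in Panx1 KO and -1.28 in Y198F, and none of the points has an adjusted p under 0.05.

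A test for any difference among the 8 groups called none of the 9 genes (edgeR, unadjusted p from 0.416 to 0.902 and adjusted p from 0.670 to 0.952), where 7.1% of 18715 genes were called, and a DESeq2 likelihood ratio test called none either. Within the S205A line, the 22 series did not differ from the other libraries in any of the 9 genes past the threshold (5.74% of 15709 genes were called, lowest unadjusted p = 0.152, DESeq2 also 0), with log2 differences from -0.60 (Ifi27l2a) to 0.89 (Irf7). The 902 genes called became 70 without S205A control 4 and 104 without S205A mutant 1, the only libraries of the line outside the series, and the median of the 9 genes moved from 0.25 to 1.715 and -0.735. When the effects of the 4 mutations were compared in 6 pairs, only Rsad2 passed, and in 1 pair. Its effect in the Panx1 KO line exceeded that in the Y198F line by 1.95 on the log2 scale (SE 0.57, edgeR adjusted p = 0.0414, where 11.6% of genes passed). Rsad2 was higher than the median WT library in 3 of 3 knockouts, but Panx1 KO 1 (91.1) lay below WT 3 (100.03), so those groups overlapped. In the Y198F line 3 of 3 mutants lay below every control, where 30.6% of all genes had groups that did not overlap. The difference was 1.92 (adjusted p = 0.303) with all 8 groups in the fit and 1.71 (adjusted p = 1) with the series as a further term. The other 5 pairs of effects called none of the 9 genes, with lowest unadjusted p from 0.0921 to 0.583. In those pairs 0.00562% (Panx1 KO with S205A), 0.0116% (Panx1 KO with Y308F), 0% (Y198F with S205A), 5.7% (Y198F with Y308F) and 0% (S205A with Y308F) of all genes passed.

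In the authors' deposited tables, the lowest adjusted p of the 9 genes was 0.741 for Rsad2 in Y198F, with a log2 fold change of -1.11. The fold changes of the authors' deposited table for Y198F lay within 0.1 of values recomputed against the S205A controls for 100% of 11205 genes, and within 0.1 of those against the Y198F controls for 30.04%. That table therefore answers another comparison than the Y198F results above.

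The rest of the interferon pathway was read from 96 listed genes. Of the 10 interferon genes, 8 (Ifnb1, Ifna1, Ifna2, Ifna4, Ifne, Ifng, Ifnl2 and Ifnl3) had 0 counts in all libraries, while Ifnk reached at most 4 and Ifnz at most 20 counts in a library. Trex1, a widely expressed nuclease that was listed among the negative regulators, also had 0 counts in all libraries, so a 0 here does not show that a transcript was absent. The receptor genes Ifnar1 (842 to 1290 normalised counts) and Ifngr1 (1499 to 5309) and the kinases Jak1 (1786 to 2583) and Jak2 (1121 to 1577) were read in every library.

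How far the rest of the pathway shared the libraries' deviations was described gene by gene. Spearman's rho with the average of the 8, over 26 libraries with group means removed, had a median of 0.674 over 32 other type I interferon-stimulated genes, of which 29 were above 0.5. It was 0.866 over the 3 enzymes that attach Isg15 (Ube2l6 0.923, Uba7 0.653) and 0.650 over 18 genes of the interferon gamma programme, among them the class I light chain B2m with 0.780. Over all 14348 genes the median was -0.0058 and 248 genes were above 0.5. It was 0.424 over the 6 members of the Jak-Stat relay, with Stat2 at 0.850 and Jak1 at -0.029, and 0.130 over 6 receptor genes. The 10 genes of nucleic acid sensing and its relay had a median of 0.019, with Irf3 at 0.205 and Mavs at -0.12. These are descriptions over the same 26 libraries, and the lists share many targets of the same factors.

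By the rule that names the genes most like the average of all 9, the first 8 among 14339 were Irgm1 (rho = 0.922), Stat2 (0.912), Rtp4 (0.910), Xaf1 (0.899), Apol9b (0.889), Mndal (0.888), Ifit3b (0.881) and Ube2l6 (0.873). Irgm1 is an interferon-induced GTPase, Stat2 the signal transducer of the type I receptor, and Ube2l6 the enzyme that carries Isg15 to its targets. Of these 8 genes, 6 were on a pathway list and Apol9b and Mndal on none. Irgm1 ran only from 281 to 741 normalised counts where Ifit3b ran from 73.0 to 582, so the shared order did not mean a shared range.

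**Figure D5:**
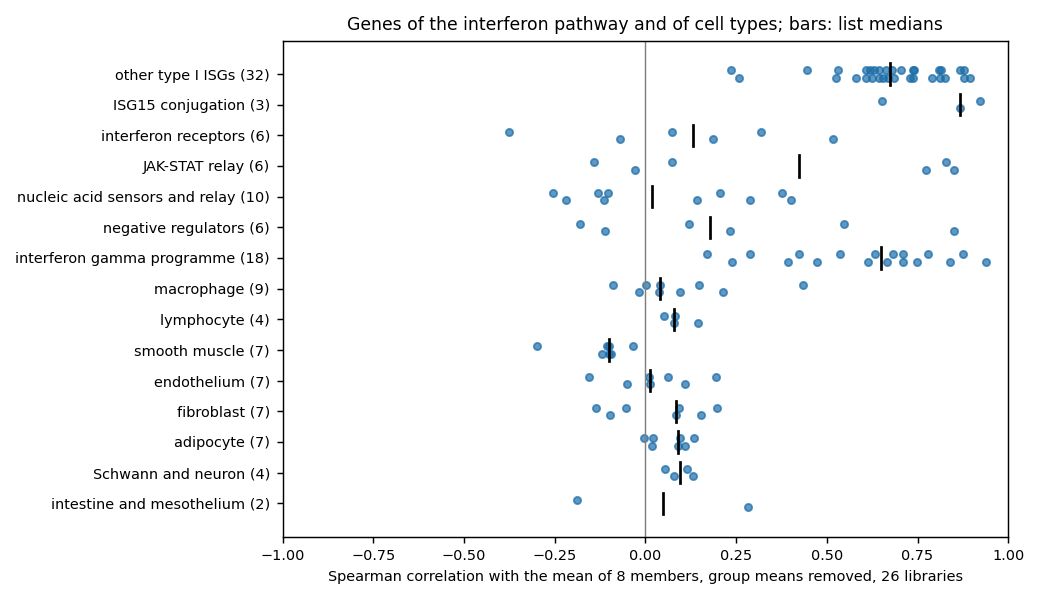
Spearman correlation of each listed gene with the average of the 8 genes over 26 libraries, group means removed, with a row for each list (its number of genes in brackets) and bars at list medians. Most other type I genes lie to the right (median 0.674), while the medians of the cell type lists lie near 0, such as endothelium (0.012) and adipocytes (0.091). Single markers run from -0.30 (Myh11) to 0.435 (Cd68), and the values pool both series.

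Between mutants and controls, single pathway genes passed the threshold with edgeR in the Y198F comparison, 3 up and 2 down of 84 tested, against 15% of all genes there. The lists as wholes were not tested, nor was a difference between comparisons for them. Up were Helz2, a helicase induced by interferon (log2 fold change 0.47, SE 0.10, adjusted p = 0.0127), the antigen peptide transporter Tap1 (0.53, SE 0.14, adjusted p = 0.0272) and Mavs, the mitochondrial relay of RNA sensing (0.38, SE 0.10, adjusted p = 0.0281). Down were Slfn5 (-0.45, SE 0.13, adjusted p = 0.0339) and Eif2ak2, the double-stranded RNA kinase PKR (-0.44, SE 0.13, adjusted p = 0.0421). With all 8 groups in the fit none of the 5 passed. DESeq2 did not call Eif2ak2 or Mavs (adjusted p = 0.0517 and 0.0523). Without Y198F control 3 none of the 5 passed (edgeR adjusted p from 0.0693 to 0.173), and without any other single library 2 or 3 did. With the series as a term Tap1, Slfn5 and Eif2ak2 turned sign, at -0.029, 0.18 and 0.15, and Helz2 and Mavs lay at 0.095 and 0.034. The counts were 0 of 85 tested in Panx1 KO, 0 of 81 in S205A and 0 of 83 in Y308F. The number above 0 was 65 of 85 in Panx1 KO, 34 of 84 in Y198F, 42 of 81 in S205A and 42 of 83 in Y308F. Of all genes, 50.8%, 49.7%, 46.9% and 46.0% lay above 0 in these comparisons. The pathway genes varied together over libraries, so their signs are not independent. In Panx1 KO the 34 other type I genes had a median log2 fold change of 0.28 with 26 above 0, beside 0.19 for the 9 genes (0.00045 without Panx1 KO 3), and macrophage markers had 0.48 with 9 of 10 above 0. In Y198F the 33 tested had a median of -0.26 with 8 above 0, beside -0.58 for the 9 genes, and macrophage markers had -0.60 with 0 of 10 above 0. The part of the macrophage markers in these medians was not tested.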

How the data were processed

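The counts table deposited by the authors holds whole-number counts, and their second table a normalised signal, the counts divided by a factor for each library, kept for genes with more than 50 counts in all. Per the labels' protocols, pairs of 150 bases were mapped to GRCm39 with STAR 2.7.9a, counted with featureCounts of Rsubread 2.20.0 and tested with DESeq2 1.46.0. The authors' deposited comparison tables give log2 fold changes, a test score and p-values. The annotation release and the use of strand are not given in the sources used here.

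Raw counts were tested with edgeR 4.0.16 (quasi-likelihood, TMM, filterByExpr, robust) in R 4.3.3, fitted on the 2 groups of each comparison, with Benjamini-Hochberg adjustment over all genes, and tested on simulated data. Standard errors come from the fold change and its F value. Correlations used log2(normalised count + 1) with group means removed, over genes with a mean of at least 20 for lists and ranks, and 100000 permutations within groups. The 9 genes and all lists were chosen with earlier results of these data known. The genes named are the 9, the pathway genes past the threshold (otherwise the 2 highest of a list), the 8 most like the average of the 9, and Panx1. DESeq2 1.42.0, other scalings, no filter, all groups in 1 fit, the 22 series as a term, a replicate block and leaving out each library were the alternatives. Windows come from GRCm39 and GENCODE vM39.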

Additional observations from a re-analysis of the deposited data

Results flagged for a closer look

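Isg15 stood apart in S205A mutant 4 (577 against 77.1 to 147 in the other 3), with a gap to the nearest library of 0.860 of the range, past Dixon's critical value for 4 samples. Chance gives such a value in about 1 of 20 groups, and 28 groups of values were looked at. The same library was highest for 6 of the 8 genes that move together.

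The effect of Panx1 KO on Rsad2 exceeded that of Y198F by 1.95 on the log2 scale in a test of the difference (edgeR adjusted p = 0.0414), by 1.92 (adjusted p = 0.303) with all 8 groups in the fit, and by 1.71 (adjusted p = 1) with the 22 series as a term. Eif2ak2 differed in the same pair by 0.90 (edgeR adjusted p = 0.00459), by 0.87 (adjusted p = 0.153) with all 8 groups in the fit, and by 0.29 (adjusted p = 1) with the 22 series as a term.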

How the results depend on the processing

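Of 684 fold changes of the 9 genes under alternatives, 586 kept sign and side of the threshold, 86 changed sign with neither value called, 9 became called, 2 lost the call and 1 was called with the opposite sign. Genes called in Panx1 KO were 0, and 1 with a replicate block (Ifi27l2a, -1.04, edgeR adjusted p = 0.0300, and 0.889 in the main model without WT 3). In Y198F they were 0, and 1 with DESeq2, 3 without a filter (Isg15, Ifit1 and Rsad2), 1 with a replicate block (Rsad2, adjusted p = 0.0357) and 0 to 3 when a library was left out. The single difference between mutation effects fell from 1 to 0 genes with all 8 groups in 1 fit, and to 0 with the series as a term. Leaving out a library moved the median of the 9 genes in Y308F between -0.68 and 0.48 and the series difference in the S205A line between -0.735 (without S205A mutant 1) and 1.715 (without S205A control 4). Ifi27l2a in Y198F ran from -0.91 (without Y198F mutant 3) to 0.69 when a library was left out, and Eif2ak2 turned to 0.15, Slfn5 to 0.18 and Tap1 to -0.029 with the series term, and Tap1 to -0.048 against S205A controls of the 22 series; the cause was not tested. Replicate numbers did not pair libraries (r of same-numbered libraries from -0.12 to 0.36 in Panx1 KO, -0.047 to 0.19 in Y198F, -0.41 to 0.23 in S205A and -0.24 to 0.075 in Y308F), and a library correlated best with its own number in 3 of 6, 2 of 6, 2 of 8 and 1 of 6 cases. The block also ended the calls of Eif2ak2 (edgeR adjusted p = 0.0663), Mavs (0.0647) and Tap1 (0.0530) in Y198F, and Mavs lay at 0.0518 without a filter. Over all genes, calls were 5 in Panx1 KO but 117 with DESeq2, 243 without a filter and 18 with the block, 2411 in Y198F but 922 with all groups, 1760 with the block and 0 with the series term, 0 in S205A but 47 with DESeq2, and 0 in Y308F but 7 without a filter. For any difference they were 1328 but 8 with the series term and 2932 with DESeq2, for the series in the S205A line 902 but 2189 with all groups, for Panx1 KO against Y198F effects 2004 but 108 with all groups and 3 with the series term, and for Y198F against Y308F effects 979 but 0 with either. Leaving out 1 library gave 1 to 5 calls in Panx1 KO, 908 to 2128 in Y198F and 70 to 1174 for the series in the S205A line. The SE of the 9 genes reached 0.97, and the difference of Panx1 in its own knockout (-2.17) did not pass.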
